A study of Mus musculus with 12 samples.

Results

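Nucleic acid sensors and their adaptors are the 9 genes Ddx58, Ifih1, Dhx58, Tlr3, Eif2ak2, Adar, Trim25, Mavs and Tmem173, out of 21911 protein-coding genes with an annotated start on the chromosomes of the mouse genome build GRCm38 (mm10). They were chosen by name, and their open chromatin was read at every annotated transcript start within 1000 bp on either side, in the gene body and within 50 kb of it. The data were 12 libraries of ATAC-seq, an assay that tags accessible DNA with a transposase, with 1 list of peaks per library. The libraries came from 2 established mouse tumour lines, 4T1, a mammary carcinoma line, and B16F10, a melanoma line. Each line is a single established line, so that a difference between them is a difference between these cultures and not between tumour types. The groups were 4T1 cells given 1 µM DAC for 48 h, 4T1 control cells, B16F10 cells given 0.1 µM DAC for 48 h, and B16F10 control cells, with 3 libraries each. DAC is decitabine, a cytidine analogue that traps and depletes DNA methyltransferases. Dead cells had been taken out with beads before the nuclei were transposed. The labels number the libraries of a group as replicates without naming separate cultures. The p-values therefore measure library-to-library spread only, and that spread may be technical.

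These genes are known for detecting nucleic acids that are out of place in a cell. RIG-I, MDA5 and LGP2, encoded by Ddx58, Ifih1 and Dhx58, bind double-stranded RNA in the cytosol, and RIG-I and MDA5 then signal through the mitochondrial adaptor MAVS to the type I interferon genes. TLR3 detects double-stranded RNA in endosomes, PKR (Eif2ak2) answers it by halting translation, ADAR1 (Adar) edits it, TRIM25 is a ubiquitin ligase that acts on RIG-I, and STING (Tmem173) relays the signal of the DNA sensor cGAS. Several of the genes are themselves induced by interferon, through a short promoter element called the interferon-stimulated response element (ISRE).

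The lists held 108083 to 118603 peaks on the chromosomes in the 4T1 DAC libraries and 89780 to 94229 in the 4T1 control libraries, so that more was called after DAC in 4T1. They held 54032 to 58468 in the B16F10 DAC libraries and 49622 to 53316 in the B16F10 control libraries. Of 8 melanocyte markers 7 had a promoter peak in all 6 B16F10 libraries, against 2 in all 6 4T1 libraries, and Sox10 was called in 3 of 3 4T1 DAC and 0 of 3 4T1 control libraries. Of 8 mammary epithelial markers 8 were called in all 6 4T1 libraries and 2 in all 6 B16F10 libraries. Of 8 leukocyte markers 2 were called in all 6 libraries of either line, and the leukocyte marker Ptprc in 0 of 12, while the leukocyte gene Spi1 was called in 0 of 3 4T1 DAC and 3 of 3 4T1 control libraries. Of 8 fibroblast and endothelial markers 4 were called in all 6 4T1 and 2 in all 6 B16F10 libraries. The part of the marker changes and of the longer lists in the results was not tested.

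The promoters the results turn on are shown first. RefSeq start sites (GRCm38.p6) gave a promoter of 300 bases, 250 before and 50 after the start, for 7 of the 9 genes, and all of them matched the genome sequence. Dhx58 and Tmem173 have no entry in that table. The ISRE was searched on both strands as GAAA, any 2 bases and GAAA again, and found in 3 of the 7 genes, Ddx58, Ifih1 and Eif2ak2. It stands in 3.44% of the 32851 promoters of this length in the table. None of the 3 matches overlapped a match of the other 7 motifs searched. The following promoters are written 5′ to 3′ on the strand of the gene, with the match in capitals.
Ddx58 (chr4:40239776-40240075, minus strand, the reverse complement of the ISRE in capitals, beginning 2 bases after the start): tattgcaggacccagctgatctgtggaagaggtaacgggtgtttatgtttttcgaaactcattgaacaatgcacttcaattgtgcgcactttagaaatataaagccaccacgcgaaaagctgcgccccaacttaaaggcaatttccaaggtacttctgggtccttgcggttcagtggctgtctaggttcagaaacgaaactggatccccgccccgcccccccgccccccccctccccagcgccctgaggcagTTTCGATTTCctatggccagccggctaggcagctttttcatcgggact
Ifih1 (chr2:62646206-62646505, minus strand, ISRE in capitals, beginning 32 bases after the start): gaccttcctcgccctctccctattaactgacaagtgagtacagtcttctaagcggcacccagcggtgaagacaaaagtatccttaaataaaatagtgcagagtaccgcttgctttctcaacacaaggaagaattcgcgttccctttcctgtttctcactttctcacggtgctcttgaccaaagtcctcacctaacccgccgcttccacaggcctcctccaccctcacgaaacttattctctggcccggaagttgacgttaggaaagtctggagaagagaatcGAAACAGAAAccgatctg
Eif2ak2 (chr17:78882523-78882822, minus strand, ISRE in capitals, beginning 18 bases after the start): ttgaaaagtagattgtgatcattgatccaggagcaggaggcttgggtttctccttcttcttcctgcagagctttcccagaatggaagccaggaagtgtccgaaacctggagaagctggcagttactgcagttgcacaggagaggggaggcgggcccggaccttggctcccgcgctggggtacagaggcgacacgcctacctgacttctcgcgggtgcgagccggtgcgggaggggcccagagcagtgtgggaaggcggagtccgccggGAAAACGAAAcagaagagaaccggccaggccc
Trim25, shown because its promoter peak was missing in B16F10 (chr11:88999153-88999452, plus strand, an E-box, CACGTG, in capitals): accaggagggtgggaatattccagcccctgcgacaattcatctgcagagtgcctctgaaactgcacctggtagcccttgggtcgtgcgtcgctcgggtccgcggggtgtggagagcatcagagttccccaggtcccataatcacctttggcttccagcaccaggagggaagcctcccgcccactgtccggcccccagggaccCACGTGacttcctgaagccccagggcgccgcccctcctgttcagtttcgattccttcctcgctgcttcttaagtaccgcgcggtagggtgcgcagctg
The E-box CACGTG stands in 7.15% of promoters of this length. Of the others searched, Tlr3 holds a kappaB match (GGG, any 3 bases and TTCC, in 5.56% of promoters), the promoter of the Adar start in the gene body a GAS match (TTCNNNGAA, in 8.3%), and the Mavs promoter none of the 8. Only exact letters were counted, so near matches to the ISRE, as in the promoter of the Adar start in the gene body, were left out. A match describes the letters and does not show that a factor binds.

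All 9 genes had a promoter peak in each of the 6 4T1 libraries, and 7 of the 9 had one in each of the 6 B16F10 libraries. Over all genes 59.3% were called in all 6 4T1 libraries and 52.6% in all 6 B16F10 libraries, and 29.6% were called in none of the 6 4T1 and 41.4% in none of the 6 B16F10 libraries. Ifih1 and Trim25 had no promoter peak in any B16F10 library, DAC or control, a pattern of 6 of 6 4T1 and 0 of 6 B16F10 libraries shared by 6.11% of all genes. No gene of the 9 showed the reverse pattern, which 0.876% of all genes did. With all starts of a gene pooled, none of the 9 was called in 3 of 3 libraries of one arm and 0 of 3 of the other. Read start by start, 2 internal starts of Ddx58 lay 31033 and 31285 bp into the gene. Each had a peak within 1000 bp in 3 of 3 4T1 DAC and 0 of 3 4T1 control libraries. Both took it from the same weak region, chr4:40207641-40208003, at percentiles of 0.1, 9.3 and 1.6 of all peaks in the DAC libraries. The share of all starts with such a call was not counted. With starts pooled, the call was made in 4T1 for 4.42% of all genes with DAC alone and 0.361% with control alone. In B16F10 it was made for 0.283% and 0.0867%, so that with 9 genes a pooled count of 0 is near the background. These member counts were the same with every alternative window and threshold tried, and with the lists cut to their strongest peaks at the length of the shortest list compared, 49622 peaks between the lines.

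**Figure D1:**
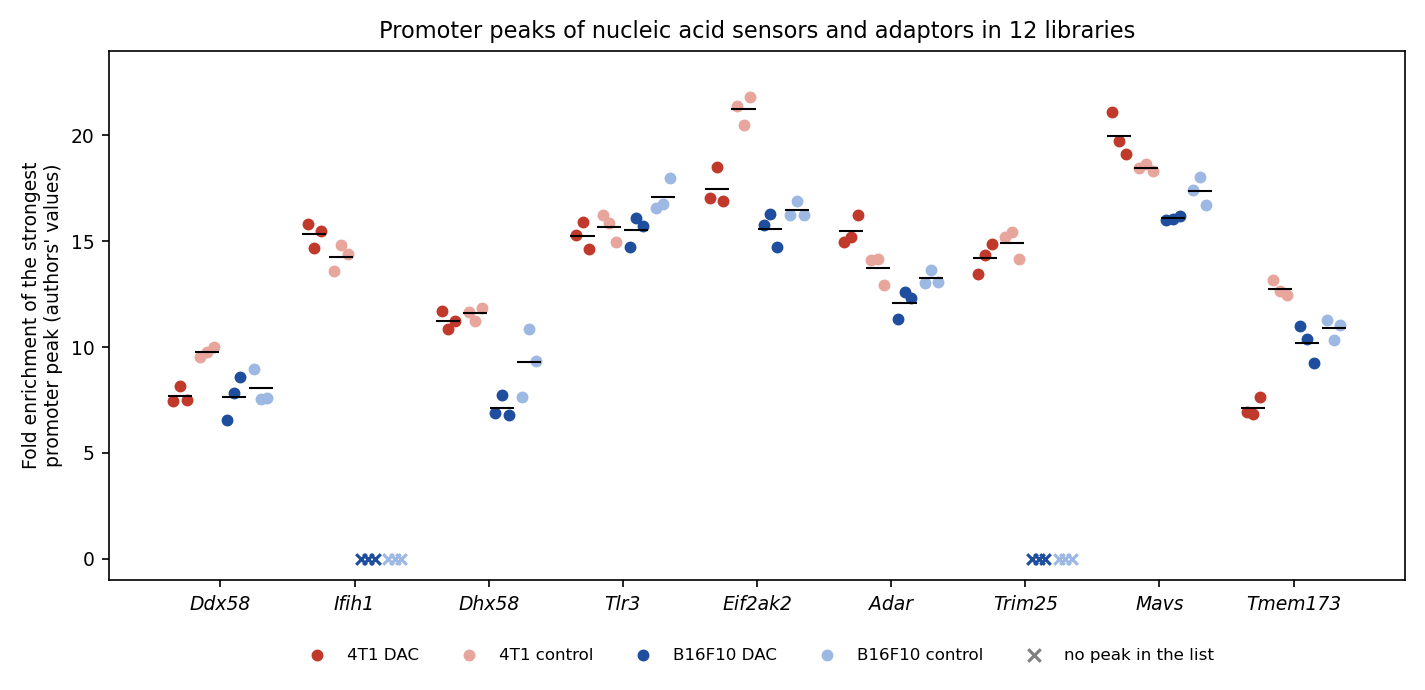
Fold enrichment of the strongest promoter peak over the local background, as the authors' peak caller gave it (vertical axis, linear), for the 9 genes in the 12 libraries, with points for libraries, bars for means of 3 libraries and crosses for libraries without a peak. Ifih1 and Trim25 carry crosses in all 6 B16F10 libraries, and Tmem173 lies between 6.84 and 7.62 in 4T1 DAC against 12.4 to 13.2 in 4T1 control libraries.

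To compare promoters that were open in both arms, the strongest promoter peak of each gene was ranked by its −log10 q-value, within each library, among the same genes, those called in all 6 libraries of the line. A percentile of 100 is the strongest promoter. In 4T1, 12994 genes were ranked and fitted with limma, and 2771 (21.3%) stood higher and 2608 (20.1%) lower after DAC at an adjusted p under 0.05. Of the 9 genes 1 rose, Ifih1, and 3 fell, Eif2ak2, Tlr3 and Tmem173. In B16F10, 11536 genes were ranked, of which 21 (0.182%) stood higher and 4 (0.0347%) lower, and none of the 7 ranked genes passed. The median difference was -0.80 percentile points over the 9 genes in 4T1 and 0.40 over all genes ranked, and in B16F10 it was 0.63 over the 7 genes and -0.03 over all genes ranked. The −log10 q-values and folds are the authors', and the main fit used the −log10 q-values as ranks only. The alternatives fitted were ranks of fold and log2 fold centred on the median of each library.

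Among the RNA sensors, Ifih1 (ENSMUSG00000026896, chr2:62595798-62646255, minus strand) was the gene whose promoter rose. Its promoter percentile in 4T1 was 66.9, 61.4 and 65.3 in DAC libraries and 42.7, 53.9 and 47.4 in control libraries. Every DAC library stood above every control library. The difference was 16.5 percentile points (SE 3.79, limma adjusted p = 0.00729), with means of 64.5 ± 2.83 in DAC and 48 ± 5.62 in control libraries (SD, n = 3 each). The fold enrichment of the same peak moved less, with 15.8, 14.7 and 15.5 in DAC against 13.6, 14.8 and 14.4 in control libraries, and 1 DAC library lay below the highest control library. Ranked by that fold, Ifih1 still passed, at 12.76 points (limma adjusted p = 0.026). The summit lay 121 to 193 bp inside the gene in the 6 4T1 libraries, downstream of the printed ISRE match.

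In B16F10 the peak nearest to the 5′ end of Ifih1 was 8237 to 8416 bp away in every library. That peak lay upstream, in a region 8.49 kb away that was called in all 12 libraries, as was another 18.1 kb upstream. Of the 23 regions formed by merging the peaks of all libraries at this locus, 2 were called in all 6 4T1 and no B16F10 library, namely the promoter and a region 5.88 kb upstream at chr2:62651882-62652393. The upstream region stood near the promoter in rank, at percentiles of 93.7, 93.8 and 94.4 of all peaks in 4T1 DAC and 83.7, 84.8 and 88.4 in 4T1 control libraries. Those percentiles come from lists of different lengths and are given as descriptions. In all, 1338 other genes had the same pattern of calls over the 12 libraries, and the closest to Ifih1 by the mean percentile over the 6 4T1 libraries, 90.2, were Fcgr4, Tet2 and Tmem54 at 90.2, 90.3 and 90.3.

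Ddx58 (ENSMUSG00000040296, chr4:40203773-40239828, minus strand) had a promoter peak in all 12 libraries but one of low rank. Its percentile among ranked promoters was 12.3, 14.0 and 12.7 in 4T1 DAC and 11.7, 12.7 and 12.2 in 4T1 control libraries, and 3.2, 5.1 and 6.1 in B16F10 DAC and 3.6, 3.2 and 3.0 in B16F10 control libraries. The groups overlapped in both lines. The difference was 0.76 points in 4T1 (SE 1.02, limma adjusted p = 0.575) and 1.504 in B16F10 (SE 1.13, limma adjusted p = 0.613). Ranked by fold enrichment the 4T1 value turned to -6.54 points and passed (limma adjusted p = 0.0109). The fold of the peak was 7.46, 8.15 and 7.49 in DAC against 9.55, 9.75 and 9.99 in control libraries. The direction at this promoter therefore depends on the measure. The summit lay 602 to 686 bp downstream of the 5′ end in all 12 libraries, past the printed promoter.

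Dhx58 (ENSMUSG00000017830, chr11:100694884-100704271, minus strand), whose product LGP2 lacks the signalling domains of RIG-I and MDA5, also passed in neither line. Its percentile was 39.6, 36.0 and 36.4 in 4T1 DAC and 37.9, 33.0 and 40.0 in 4T1 control libraries, and 7.2, 9.4 and 6.7 in B16F10 DAC and 4.4, 11.4 and 8.9 in B16F10 control libraries. The values overlapped in both lines, and the differences of 0.37 points in 4T1 (SE 2.70, limma adjusted p = 0.924) and -0.48 in B16F10 (SE 1.85, limma adjusted p = 0.947) did not pass. The fold enrichment was 11.7, 10.8 and 11.2 in 4T1 DAC and 11.7, 11.2 and 11.9 in 4T1 control libraries, also with overlap. The strongest peak of its promoter windows had its summit 1630 to 1677 bp downstream of the 5′ end in 11 of the 12 libraries, and 90 bp upstream of it in 1 B16F10 DAC library. In B16F10 a separate peak covered the 5′ end. Its percentile of all peaks was 57.5, 66.2 and 55.0 in DAC and 31.8, 32.0 and 46.3 in control libraries, without overlap. These percentiles come from lists of different lengths, and the peak at the 5′ end was not tested on its own.

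Tlr3 (ENSMUSG00000031639, chr8:45395665-45411080, minus strand), the endosomal receptor, fell in 4T1 by this rank. Its percentile was 49.2, 56.9 and 46.5 in DAC and 67.1, 65.7 and 60.6 in control libraries of 4T1, with no overlap between the arms. The difference was -13.6 points (SE 3.81, limma adjusted p = 0.0183). The fold enrichment did not show it, at 15.3, 15.9 and 14.6 in DAC against 16.2, 15.9 and 14.9 in control libraries, and ranked by fold the difference was 1.86 points with an adjusted p of 0.716 in limma. Leaving out DAC 1, DAC 3, control 1 or control 2 of 4T1 also ended the call, at limma adjusted p-values of 0.0511 to 0.0681. In B16F10 the percentile was 38.7, 40.9 and 45.8 in DAC and 44.8, 49.3 and 55.9 in control libraries, a difference of -8.16 points that did not pass (SE 4.85, limma adjusted p = 0.513).

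**Figure D2:**
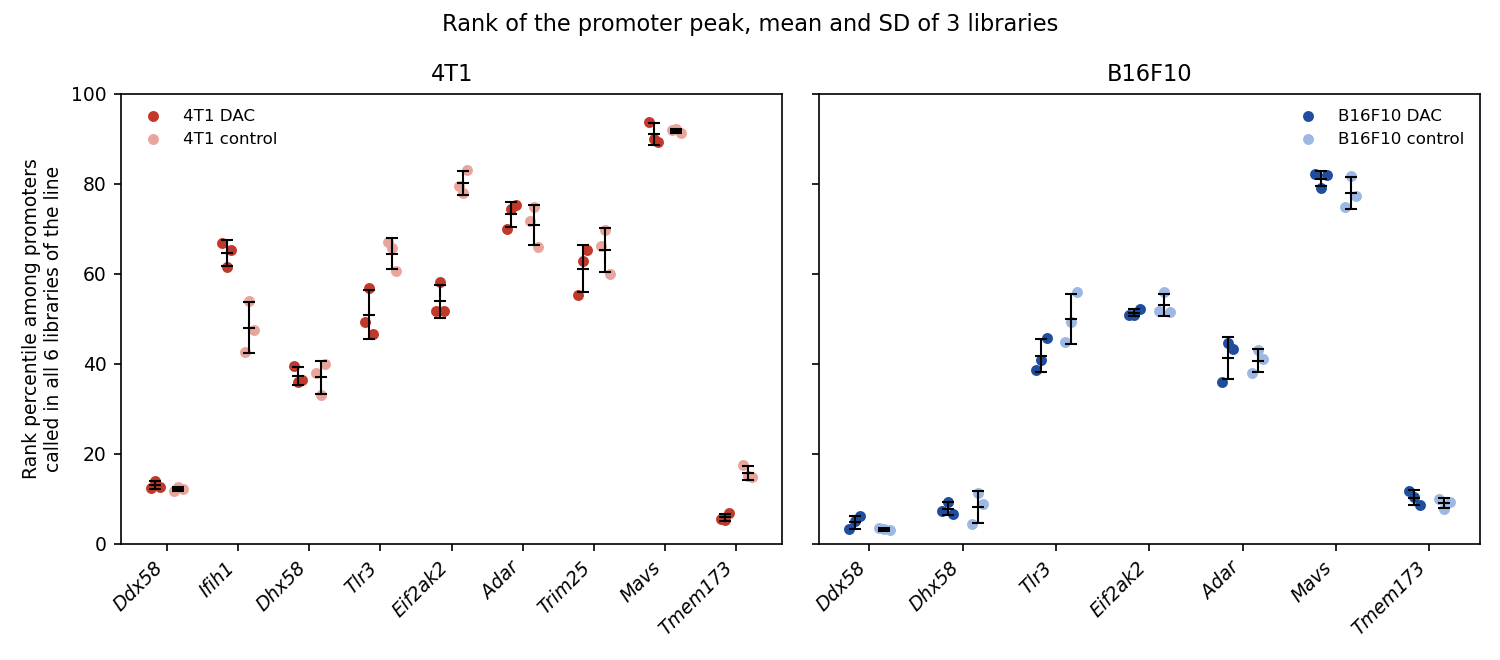
Percentile of the strongest promoter peak by −log10 q-value among the promoters called in all 6 libraries of the line (vertical axis, linear), for 4T1 on the left and B16F10 on the right, with points for libraries and bars for the mean and SD of 3 libraries. Ifih1 rose and Tlr3, Eif2ak2 and Tmem173 fell in 4T1 DAC against 4T1 control libraries, Tlr3 by this measure only, and none of the 7 genes ranked in B16F10 passed.

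The effector kinase PKR, encoded by Eif2ak2 (ENSMUSG00000024079, chr17:78852564-78882573, minus strand), had the greatest fall of the 9 promoters in 4T1 by −log10 q-value. Its percentile was 51.8, 58.1 and 51.8 in DAC and 79.5, 77.9 and 83.1 in control libraries. The lowest control library stood well above the highest DAC library. The difference was -26.3 points (SE 3.08, limma adjusted p = 2.4e-04), with means of 53.9 ± 3.64 in DAC and 80.2 ± 2.66 in control libraries (SD, n = 3 each). The fold enrichment was 17.0, 18.5 and 16.9 in DAC against 21.4, 20.5 and 21.8 in control libraries, also without overlap. In B16F10 the percentile was 50.8, 50.9 and 52.2 in DAC and 51.7, 55.9 and 51.5 in control libraries, which overlapped, with a difference of -1.75 points (SE 4.42, limma adjusted p = 0.908). The summit lay within 71 bp of the 5′ end in all 12 libraries, beside the ISRE match printed above.

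Of the 3 promoters that hold the ISRE letters, that of Ifih1 rose and that of Eif2ak2 fell in 4T1 after DAC by −log10 q-value. That of Ddx58 did not pass by this measure but fell when ranked by fold (-6.54 points, limma adjusted p = 0.0109).

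Adar (ENSMUSG00000027951, chr3:89715022-89753446, plus strand) was open at 2 places in every library, at its upstream starts and at a start 15.7 kb into the gene. The start in the body was the stronger in all 12 libraries, with a fold enrichment of 15.0, 15.2 and 16.2 in 4T1 DAC and 14.12, 14.15 and 12.95 in 4T1 control libraries. At the upstream starts it was 11.7, 9.98 and 11.0 in 4T1 DAC and 11.5, 12.1 and 11.3 in 4T1 control libraries. In 4T1 the fold at the body start was thus higher in each DAC library than in each control library, and at the upstream starts the arms overlapped. In B16F10 the fold at the body start was 11.3, 12.6 and 12.3 in DAC and 13.0, 13.7 and 13.1 in control libraries, so that each DAC library was lower than each control library. The same held in B16F10 for the folds of Mavs and Tlr3, while those of Ddx58, Dhx58, Eif2ak2 and Tmem173 overlapped. The share of all genes whose uncentred folds separate in this way was not counted. Centred on the median of each library, the log2 folds in B16F10 differed by -0.00558 (Mavs) and -0.0297 (Adar), DAC minus control. Neither passed (limma adjusted p = 0.974 and 0.893), and no member was lower in B16F10 under any alternative. The percentile of the stronger Adar peak was 70.0, 74.3 and 75.3 in 4T1 DAC and 71.8, 74.8 and 66.0 in 4T1 control libraries. It was 36.0, 44.7 and 43.2 in B16F10 DAC and 37.9, 43.0 and 41.1 in B16F10 control libraries, with overlap in both lines. It differed by 2.36 points in 4T1 (SE 2.95, limma adjusted p = 0.549) and 0.63 in B16F10 (SE 4.36, limma adjusted p = 0.971). Ranked by fold it rose by 17.97 points in 4T1 (limma adjusted p = 0.00746), so the 4T1 call on Adar depends on the measure. In B16F10 the difference ranked by fold was -1.32 points and did not pass (limma adjusted p = 0.941).

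Trim25 (ENSMUSG00000000275, chr11:88999376-89020293, plus strand), with a single annotated start, was open in 4T1 in both arms. Its percentile was 55.2, 62.8 and 65.2 in DAC and 66.2, 69.6 and 60.0 in control libraries, which overlapped, with a difference of -4.17 points (SE 3.88, limma adjusted p = 0.414). Its fold enrichment, 13.5, 14.3 and 14.8 in DAC against 15.2, 15.4 and 14.2 in control libraries, overlapped too. The width of the promoter peak, not tested, was 1221, 1077 and 1073 bp in DAC and 1605, 1728 and 1649 bp in control libraries, without overlap. The share of all promoters whose widths separate in this way was not counted. In B16F10 the nearest peak to the start was 5350, 4384 and 5351 bp away in DAC and 5486, 5355 and 4054 bp away in control libraries. Genes with the same calls over the 12 libraries and the nearest mean percentile over the 6 4T1 libraries were Ddb2, F2rl1 and Grb10, at 92.6, 92.6 and 92.7 against 92.6 for Trim25. The CpG content of its promoter window, 4.30 per 100 bases, was at the 67.3th percentile of all genes, and that of Ifih1, 3.00, at the 49.5th.

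The adaptor gene Mavs (ENSMUSG00000037523, chr2:131234063-131248025, plus strand) had the highest-ranked promoter of the 9 by −log10 q-value in every library. By fold enrichment Eif2ak2 stood above it in all 3 4T1 control libraries and 1 B16F10 DAC library, and Tlr3 in 1 B16F10 DAC and 1 B16F10 control library. Its percentile was 93.7, 89.9 and 89.2 in 4T1 DAC and 91.8, 92.1 and 91.3 in 4T1 control libraries, and 82.2, 79.1 and 82.0 in B16F10 DAC and 74.8, 81.7 and 77.2 in B16F10 control libraries. The arms overlapped in both lines. The difference was -0.80 points in 4T1 (SE 1.19, limma adjusted p = 0.615) and 3.22 in B16F10 (SE 2.49, limma adjusted p = 0.624). Ranked by fold, 4T1 gave a rise of 9.81 points (limma adjusted p = 0.00522). The folds were 21.1, 19.8 and 19.1 in DAC against 18.4, 18.6 and 18.3 in control libraries.

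Tmem173 (ENSMUSG00000024349, chr18:35733679-35740554, minus strand), the STING gene, fell in 4T1 by every measure tried. Its percentile was 5.5, 5.3 and 6.8 in DAC and 17.5, 15.0 and 14.8 in control libraries. The arms did not overlap. The difference was -9.89 points (SE 1.09, limma adjusted p = 1.8e-04), and the fold enrichment was 6.93, 6.84 and 7.62 in DAC against 13.2, 12.7 and 12.4 in control libraries. Ranked by fold the fall was greater than that of Eif2ak2, at -29.3 against -13.6 points (limma adjusted p = 1.2e-04 and 0.00649). In B16F10 its percentile was 11.8, 10.5 and 8.6 in DAC and 10.0, 7.8 and 9.4 in control libraries, a difference of 1.23 points that did not pass (SE 1.48, limma adjusted p = 0.773).

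**Figure D3:**
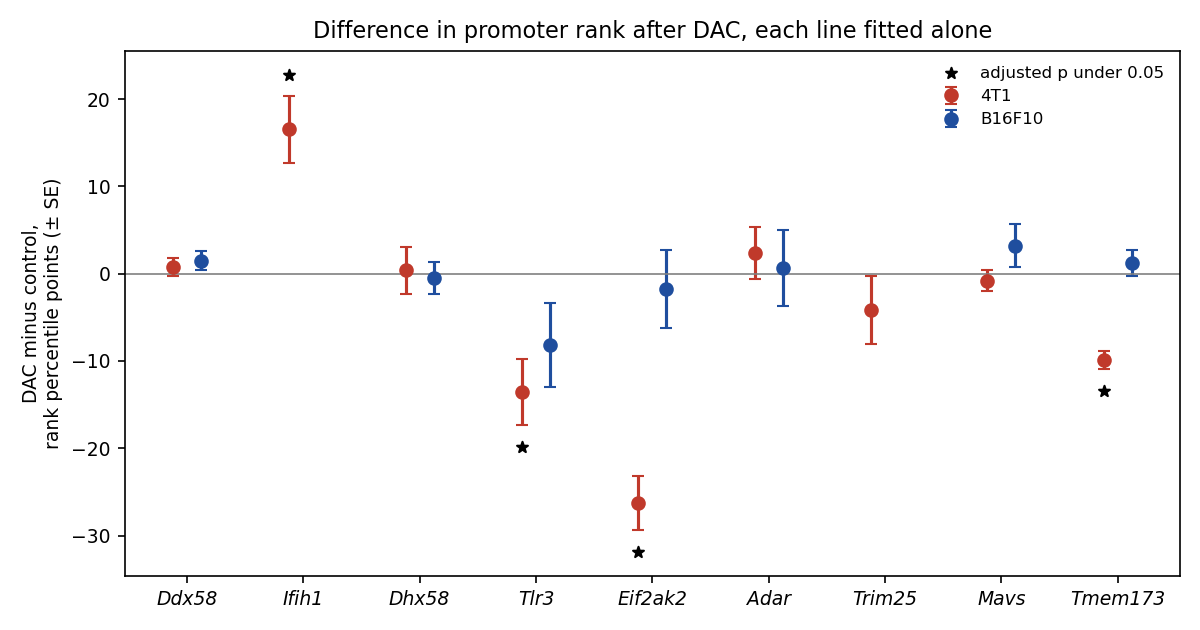
Difference in promoter percentile, DAC minus control (vertical axis, percentile points, with SE), for the 9 genes in 4T1 and the 7 ranked genes in B16F10, with stars for an adjusted p under 0.05. The values run between -26.3 (Eif2ak2) and 16.5 (Ifih1) in 4T1 and between -8.16 (Tlr3) and 3.22 (Mavs) in B16F10.

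Whether the DAC effect differed between the lines was tested for the 7 genes called in all 12 libraries, ranked among the 11008 such genes. The effect in 4T1 minus that in B16F10 passed in the higher direction for 7.90% and in the lower direction for 8.98% of all genes. It passed for 2 of the 7, both lower in 4T1. For Eif2ak2 it was -27.9 points (SE 4.89, limma adjusted p = 0.0017), and for Tmem173 -8.00 points (SE 1.69, limma adjusted p = 0.00572). For Ddx58, Dhx58, Mavs, Tlr3 and Adar the difference did not pass, at values between -7.00 (SE 6) and 1.71 points (SE 5.52) and limma adjusted p-values of 0.323 to 0.951, although Adar passed on the scale of centred log2 fold (0.26, limma adjusted p = 0.0371). The dose was 1 µM in 4T1 and 0.1 µM in B16F10, so line and dose cannot be told apart.

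The promoters were also compared between the lines, a comparison in which most of all ranked genes passed in one direction or the other. In the DAC libraries 4 of the 7 genes stood higher in 4T1 than in B16F10, a call made for 32.6% of all genes, and 1 stood lower, a call made for 31.3%. In the control libraries 6 of the 7 stood higher, against 31.1% of all genes, and none lower, against 32.3%. Adar had a mean percentile of 69.1 ± 3.14 in 4T1 DAC and 39.4 ± 4.74 in B16F10 DAC libraries, and 66.7 ± 4.92 in 4T1 control and 38.8 ± 2.68 in B16F10 control libraries (SD, n = 3 each), a gap of 29.7 points in DAC and 28.0 in control libraries (limma adjusted p = 1.2e-05 and 2.2e-05). Dhx58 had 29.8 ± 2.12 in 4T1 DAC and 6.2 ± 1.25 in B16F10 DAC libraries, and 29.9 ± 3.8 in 4T1 control and 6.67 ± 3.13 in B16F10 control libraries. Its gap was 23.6 points in DAC and 23.2 in control libraries (limma adjusted p = 5.3e-07 and 6.1e-07), but in windows of 2000 bp the gaps were 6.9 and 2.45 and neither passed. Mavs and Ddx58 were also higher in 4T1 in both arms, by 9.04 and 3.21 points in DAC and 13.4 and 3.96 points in control libraries. Ranked by fold, the control gaps of Adar and Mavs, 4.89 and 3.17 points, and the DAC gap of Ddx58, 0.70 points, no longer passed.

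Eif2ak2 passed between the lines in the control libraries and not in the DAC libraries, and the change of that gap is the tested difference above. Its mean percentile over both lines was 47.6 ± 3.93 in 4T1 DAC and 49.6 ± 0.84 in B16F10 DAC libraries (SD, n = 3 each), a difference of -2.05 points (limma adjusted p = 0.624). In control libraries it was 77.3 ± 3.02 in 4T1 and 51.5 ± 2.54 in B16F10, a difference of 25.8 points (limma adjusted p = 1.5e-05). Tmem173 was lower in 4T1 in the DAC libraries, at -6.12 points (limma adjusted p = 4.3e-04), and did not pass in the control libraries, at 1.88 points (limma adjusted p = 0.183), where ranking by fold gave 14.1 points (limma adjusted p = 0.00148). Tlr3 stood 4.34 points higher in 4T1 DAC than in B16F10 DAC libraries (limma adjusted p = 0.386) and 11.3 points higher in the control libraries (limma adjusted p = 0.0303). Ranked by fold the control value turned to -15.2 points and passed (limma adjusted p = 0.0311).

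Beyond the promoters, the gene bodies and 50 kb flanks were compared by the number of peaks. The Ddx58 locus held 23, 23 and 23 peaks in 4T1 DAC and 11, 10 and 11 in 4T1 control libraries, and 7, 8 and 9 in B16F10 DAC and 9, 7 and 7 in B16F10 control libraries. The 4T1 arms did not overlap and the B16F10 arms did. The Ifih1 locus held 16, 16 and 11 peaks in 4T1 DAC and 7, 9 and 8 in 4T1 control libraries, against 3, 3 and 3 in B16F10 DAC and 4, 5 and 5 in B16F10 control libraries. The Dhx58 locus held 19, 20 and 20 in 4T1 DAC and 12, 14 and 13 in 4T1 control libraries. The Tmem173 locus held fewer peaks after DAC in 4T1, with 9, 8 and 8 in 4T1 DAC and 13, 13 and 12 in 4T1 control libraries, and 6, 8 and 6 in B16F10 DAC and 6, 8 and 9 in B16F10 control libraries. Between 5 and 17 peaks stood at the loci of Mavs, Tlr3, Eif2ak2, Adar and Trim25 in every 4T1 library. The share of all loci whose counts separate the 4T1 arms was not computed, so how unusual such a separation is was not tested.

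Since the 4T1 DAC lists were longer, the counts were put per 100000 peaks of each library. On that scale the 4T1 difference was 8.88 at Ddx58, 4.03 at Ifih1 and 3.4 at Dhx58, against -6.34 at Tmem173, -2.95 at Mavs and -2.68 at Eif2ak2, and the median over all genes was -0.34. These sizes depended on which peaks were counted: with equal numbers of peaks the 4T1 difference was 4.46 at Ddx58, 0.371 at Ifih1 and -4.08 at Tmem173, and with peaks of a fold of at least 5 it was 3.12 at Ddx58, -3.64 at Ifih1, 0.753 at Dhx58 and 0.411 at Mavs. With 20 kb flanks it was -1.94 at Tmem173, and with 100 kb flanks 9.51 at Dhx58. In B16F10 it was -0.28 at Ddx58, -3.58 at Ifih1 and -2.8 at Tmem173. With the treatment labels exchanged within each line in all 400 ways, an exact two-sided permutation test of the mean difference over both lines, whose smallest p is 0.005, left no gene of all 21911 past an adjusted p of 0.05 in either direction (0% called), while 4830 had an unadjusted p under 0.05. Eif2ak2 had -2.01 peaks per 100000 (exact permutation p = 0.005, adjusted 0.0596), Tmem173 -4.57 and Mavs -2.2 (each exact permutation p = 0.01, adjusted 0.0891), and Ddx58 4.3 (exact permutation p = 0.07, adjusted 0.252). The p of Eif2ak2 is the smallest possible, so no gene could have an adjusted p below 0.0596 with 50 kb flanks. The 0% called therefore does not show that single loci were unchanged. Because the lines are averaged, a change in 4T1 alone was not tested. With flanks of 20 kb Eif2ak2 had an adjusted p of 0.0472, and 2124 genes then passed in the lower and 195 in the higher direction.

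**Figure D4:**
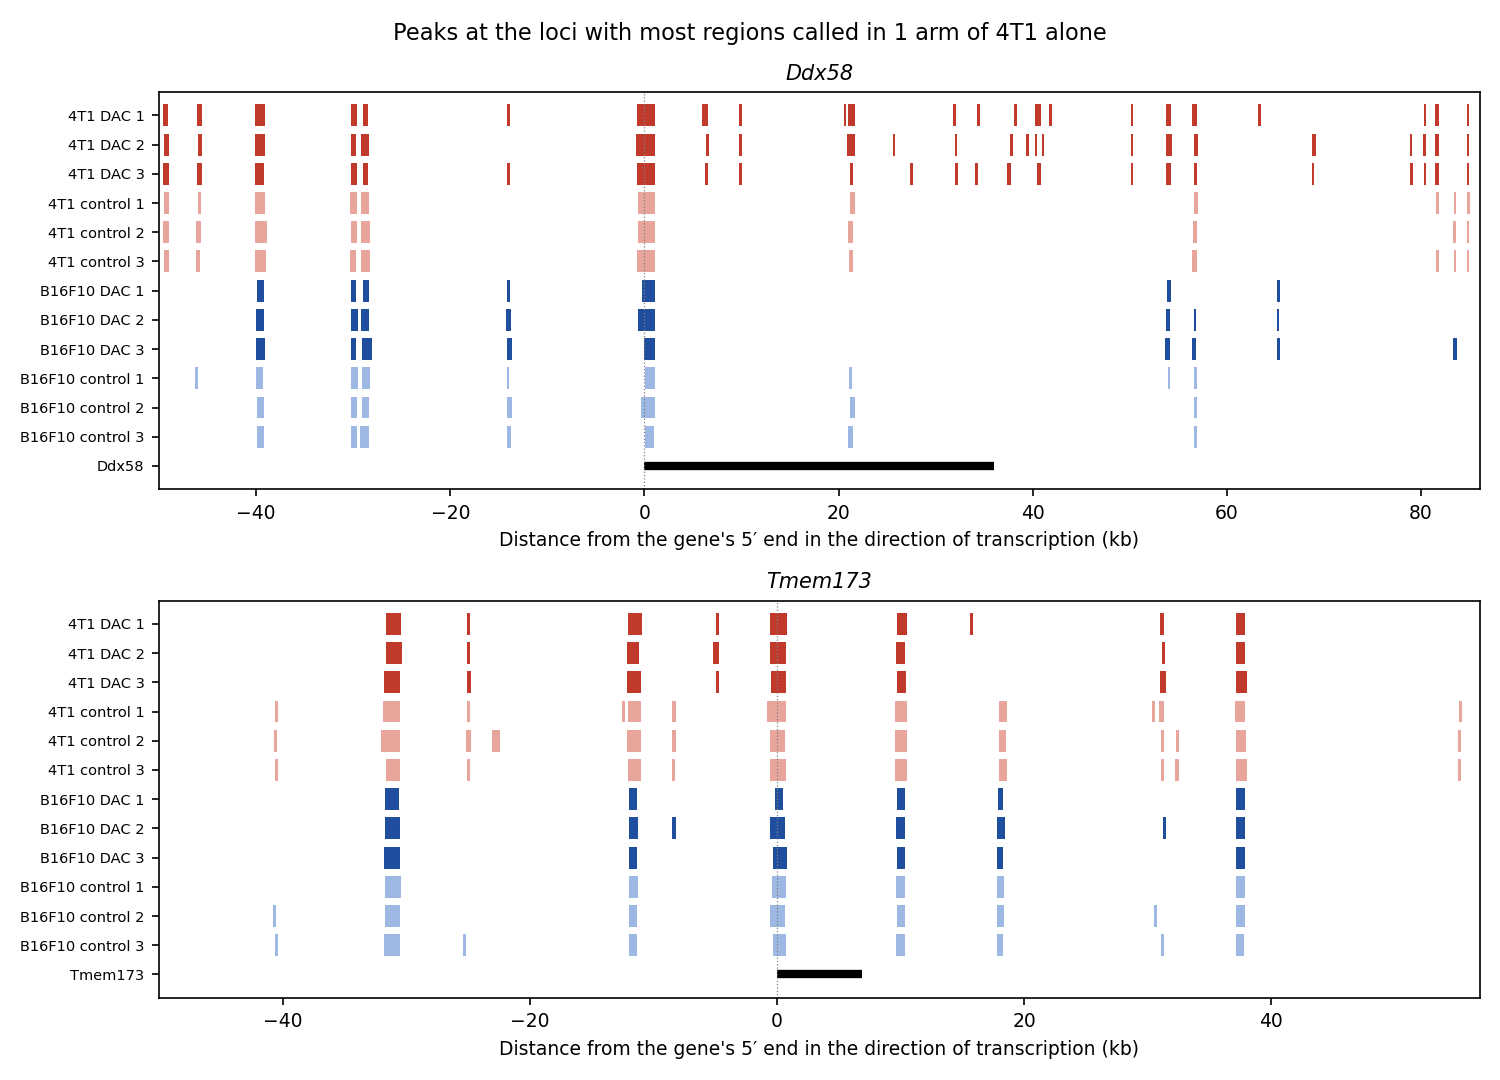
Peaks at the Ddx58 and Tmem173 loci in the 12 libraries, 1 row per library with DAC above control in each line (horizontal axis, distance from the 5′ end of the gene in kb, with the gene as a black bar). Of the 32 merged 4T1 regions at Ddx58, 7 were called in the 3 DAC libraries alone and 1 in the 3 control libraries alone, and of the 17 at Tmem173 1 and 4.

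Single regions were then read as those called in 3 of 3 libraries of one arm and 0 of 3 of the other. Distances of regions run from the 5′ end of the gene to the middle of the region. Over the 9 loci 17 of the 156 merged 4T1 regions were called with DAC alone (10.9%, against 12% of all 4T1 regions) and 7 with control alone (4.49%, against 3.57%), while 68 were called in all 6 (43.6%, against 45.7%). In B16F10 2 of 84 regions were called with DAC alone (2.38%, against 2.26% of all regions) and 2 with control alone (2.38%, against 0.886%), while 56 were called in all 6 (66.7%, against 45.3%). Ddx58 held 7 of the 17 DAC regions of 4T1. The strongest of them was an intron region 9.88 kb into the gene at chr4:40229816-40230084, at percentiles of 47.9, 52.6 and 43.5 of all peaks in the 3 DAC libraries. The others lay in an intron at 6.24 kb, near an internal transcript start at 32.0 kb, and at 40.5, 50.2, 54.0 and 80.4 kb downstream of the 5′ end. Of these the farther 3 overlap the neighbouring gene Aco1.

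Ifih1 held 3 such regions, in an exon at 11.0 kb, an intron at 13.9 kb and 59.9 kb downstream of its 5′ end. At Trim25 a region 2.86 kb upstream of the start, chr11:88996343-88996692, was called at percentiles of 44.0, 56.8 and 54.5 in the 3 4T1 DAC libraries, within 1000 bp of a start of the neighbouring gene Gm11496. A repeat-rich one lay 66.2 kb downstream of the Trim25 start. Dhx58 had 2, at 13.7 and 23.8 kb downstream of its 5′ end, and Tlr3 had 2, at 31.8 and 33.7 kb upstream, of which the farther is 97.0% repeat sequence. Tmem173 had 1, at 4.93 kb upstream.

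Of the 7 control regions of 4T1, 4 were at Tmem173, at 8.36 and 40.6 kb upstream and 18.3 and 55.3 kb downstream of its 5′ end. The one at 55.3 kb was the strongest, at percentiles of 47.4, 52.9 and 52.6 in the 3 control libraries. The rest were 1 in an intron of Mavs 1.25 kb from its 5′ end, at percentiles of 36.0, 37.7 and 40.4, 1 in a repeat 24.1 kb upstream of Tlr3, and 1 at 83.5 kb downstream of the 5′ end of Ddx58. Adar and Eif2ak2 had no region called in one arm alone in either line. In B16F10 the DAC regions were 65.3 kb downstream of the 5′ end of Ddx58 and 52.6 kb downstream of that of Trim25. The control regions were introns of Ddx58 at 21.4 kb and Ifih1 at 15.7 kb.

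The letters TGANTCA, the core of an AP-1 site, stood within 120 bases around the summit in 5 of the 17 DAC regions of 4T1 (29.4%), 3 at Ddx58 and 1 each at Ifih1 and Trim25. They stood in 15.2% of all 17630 4T1 regions called with DAC alone and in 27.0% of all 146901 4T1 regions, and in none of the 7 control regions of the loci against 29.5% of all 4T1 regions called with control alone. The ISRE letters stood in none of the 17 within the same 120 bases, against 1.5% of all DAC regions. In a window of 200 bases around the summit 1 of the 17 held them, the Ddx58 intron region at 6.24 kb. The strongest region with the match at each of the 3 genes is shown as read from the GRCm38.p6 sequence on the plus strand, with the matches in capitals.
Ddx58 intron (chr4:40229889-40230008, AP-1): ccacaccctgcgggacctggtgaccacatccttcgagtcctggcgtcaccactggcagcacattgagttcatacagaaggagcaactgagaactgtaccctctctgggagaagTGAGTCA
Ifih1 exon (chr2:62635142-62635261, AP-1): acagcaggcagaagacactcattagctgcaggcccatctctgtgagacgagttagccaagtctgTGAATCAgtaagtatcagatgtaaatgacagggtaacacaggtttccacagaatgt
Trim25 upstream (chr11:88996528-88996647, AP-1 first and then GAS): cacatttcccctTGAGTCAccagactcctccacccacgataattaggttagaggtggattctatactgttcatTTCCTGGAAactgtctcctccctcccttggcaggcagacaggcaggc

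Between the lines, of 170 regions merged over all 12 libraries, 46 were called in every library (27.1%, against 12.6% of all regions), 15 in 4T1 alone (8.82%, against 19%) and 5 in B16F10 alone (2.94%, against 5.34%). Apart from the promoters of Ifih1 and Trim25, the 4T1 regions of highest rank were at Ifih1 5.88 kb upstream, at Dhx58 52.3 kb downstream and at Trim25 24.2 kb downstream, each counted from the 5′ end of the gene. At the Dhx58 locus, 2 repeat regions about 40 kb downstream of the 5′ end, at chr11:100662896-100663430 and chr11:100663802-100664836, ranked at 66.4, 69.8 and 56.2 and at 65.1, 70.5 and 71.0 in 4T1 DAC libraries, against 39.8, 33.2 and 27.6 and 21.1, 27.4 and 24.8 in 4T1 control libraries. Among the B16F10 regions the strongest were in an intron of Adar at 8.56 kb and 30.4 kb upstream of Eif2ak2.

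**Figure D5:**
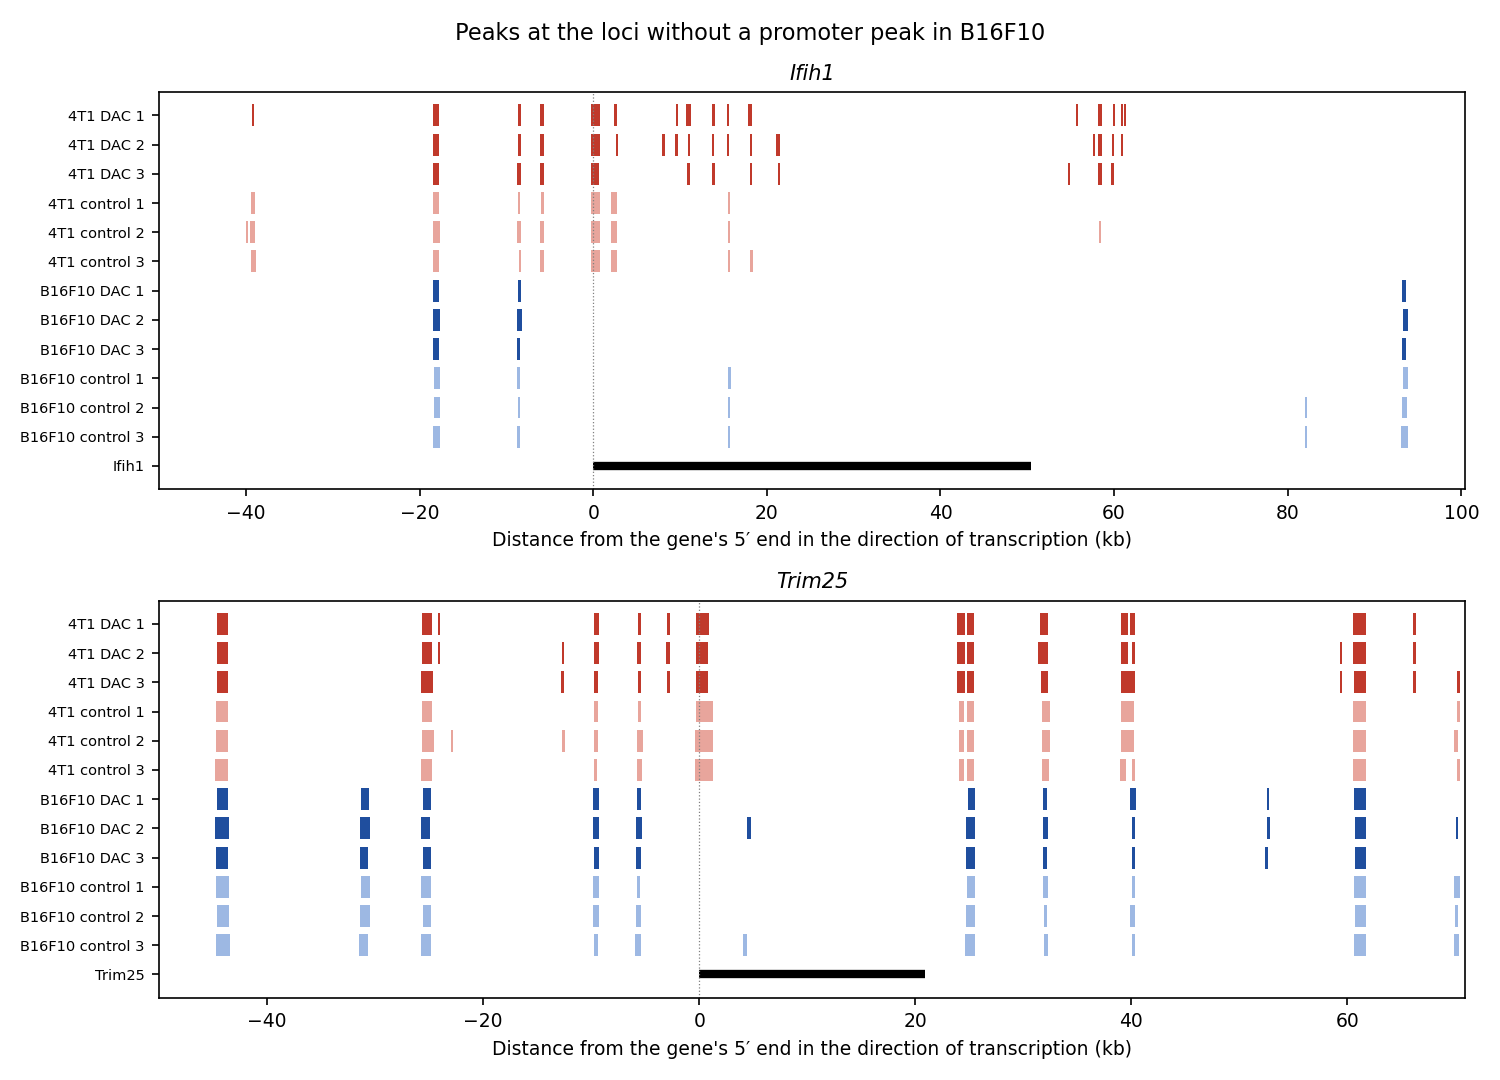
Peaks at the Ifih1 and Trim25 loci in the 12 libraries, 1 row per library with DAC above control in each line (horizontal axis, distance from the 5′ end of the gene in kb, with the gene as a black bar). The 6 4T1 libraries have a peak at 0 kb at both genes and the 6 B16F10 libraries have none, while flanking peaks are shared by both lines.

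The wider pathway was read from 45 other genes in 6 lists. Of these 43 had a promoter peak in all 6 4T1 libraries, against 59.3% of all genes, and 35 in all 6 B16F10 libraries, against 52.6%. Of the 45, none was called in one arm alone in either line, and 5 (Ifi204, Tlr9, Rnf125, Zcchc3 and Nlrx1) were called in 4T1 alone, against 6.11% of all genes, and none in B16F10 alone, against 0.876%. The rank rose after DAC in 4T1 for 14 of the 43 ranked genes and fell for 7, against 21.3% and 20.1% of all genes, and in B16F10 rose for 1 of 35 and fell for none, against 0.182% and 0.0347% of all genes. Of 6 DNA sensors 2 rose and 1 fell in 4T1. Cgas, which makes the messenger that STING binds, rose by 16.3 points (SE 1.47) and Aim2, an inflammasome DNA sensor, by 14.2 points (SE 1.298).

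Of 9 kinases and signal adaptors 4 rose and 2 fell in 4T1. Tbkbp1 rose by 26.1 points (SE 2.28) and Tank by 24.5 points (SE 3.33), both known to bind the kinase TBK1, whereas Traf3, a ubiquitin ligase downstream of MAVS, fell by 39.5 points (SE 6.63) and Irf7, an interferon-inducible transcription factor, by 15.7 points (SE 3.88). Of 7 nucleases 2 rose and 2 fell, the falls being Rnaseh2c by 19.9 points (SE 2.52) and Trex1, which degrades cytosolic DNA, by 17.7 points (SE 3.35). Of 8 cofactors of the RIG-I-like receptors 2 rose and 1 fell, with Ddx60 up by 19.3 points (SE 2.14). Of 9 other genes for double-stranded RNA binding proteins 4 rose and none fell, and of 4 ranked endosomal genes none rose and 1 fell. In B16F10 the gene that passed was Zc3hav1, encoding the antiviral protein ZAP, at 17.6 points (SE 2.52, limma adjusted p = 0.0426). That call did not hold by rank of fold, with the replicate block, or without B16F10 control 3 or DAC 3. In each of those fits no gene of all ranked in B16F10 passed. The limma adjusted p-values of the named genes in 4T1 were 5.8e-05 to 0.0104. Their 4T1 calls were read from the main fit by −log10 q-value only, and not by fold or with single libraries left out.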

How the data were processed

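Per the labels, nuclei of live cells were transposed with a Nextera kit, and the libraries were amplified, size-selected and sequenced on either of a pair of instrument types. The labels do not assign libraries to instruments. Per the submitters' processing notes, the peaks are on mm10 and the tools included MACS2 and Bowtie2, besides Picard, FastQC, MultiQC, ChIPseeker and DiffBind. Versions and settings are not given there. The authors deposited 1 peak list per library, each ending at a q of 0.05. The list of B16F10 DAC 2 held 58468 peaks, all on the chromosomes, while every other list also held peaks off them. The deposited score follows the q-value and was not used. The fold enrichment, a ratio to the local background, the −log10 p-value and −log10 q-value, and the summit position are the authors'. The lists hold no read counts, so depth is unknown and no counting interval was possible.

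Genes and starts came from GENCODE M21 and sequences from RefSeq (GRCm38.p6, no peak past a chromosome end). A promoter was called where a peak overlapped by 1 bp the 1000 bp around any start. Ranks were fitted with limma 3.58.1 (R 4.3.3, trend, Benjamini-Hochberg over all genes ranked, threshold 0.05). Each line was fitted alone, and both lines with 4 groups and 1 estimate of spread. Within a line the arms can be exchanged in 20 ways, so that an exact permutation test within a line cannot go below p = 0.10. Peaks were merged within a line, or over 12 libraries, into regions. The scripts were tested on simulated data. Other tools were Python 3.11.15, numpy 2.4.6, pandas 2.3.3, pysam 0.24.0 and samtools 1.23.1.

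The genes, the lists and the tests were chosen with earlier results of these data known. All 9 genes are named, and of the 45 other genes the 10 with the greatest rank change among those that passed in a line. Of 77 listed symbols 1 was found under its current name, Cgas. Alternatives were other windows, thresholds, flanks, numbers of peaks, ranking by fold, a replicate block and leaving out each library.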

Additional observations from a re-analysis of the deposited data

Results flagged for a closer look

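The change in the rank of the Eif2ak2 promoter after DAC differed between the lines, by a test of the difference itself. The effect in 4T1 minus the effect in B16F10 was -27.9 percentile points (SE 4.89, limma adjusted p = 0.0017). It was lower in 3 of 3 4T1 DAC libraries than in every 4T1 control library.

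The change in the rank of the Tmem173 promoter also differed, by -8.00 percentile points (SE 1.69, limma adjusted p = 0.00572). Every 4T1 DAC library stood below every 4T1 control library. The 4T1 DAC libraries held more peaks than the 4T1 control libraries and the doses of the lines differed, and the part of either in these values was not tested.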

How the results depend on the processing

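The counts of members called at promoters were the same under all alternatives, and of 290 recomputed member counts 285 stayed within 1.5 times. Many of those counts were 0 throughout, and drops from 3 to 2 or from 6 to 4 fell within that limit. The calls on Ifih1, Eif2ak2 and Tmem173 in 4T1 held under every alternative, with adjusted p-values of 0.00577 to 0.0291, 2.2e-04 to 0.00649 and 2.0e-05 to 0.00132. Ranked by fold, or on centred log2 fold, 3 members rose and 3 fell in 4T1, where Ddx58 replaced Tlr3 among the falls and Mavs and Adar joined the rises. One member, Tlr3, was then lower in 4T1 than in B16F10 controls by rank of fold, and 1, Adar, had a higher DAC effect in 4T1 by centred log2 fold. With 20 kb flanks 1 member, Eif2ak2, passed in peaks per locus. The cause was not tested.

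Leaving out single libraries gave 2 to 3 members lower after DAC in 4T1. Tlr3 lost its call without DAC 1, DAC 3, control 1 or control 2, with adjusted p-values of 0.0585, 0.0681, 0.0542 and 0.0511 and differences between -16.6 and -11.4 over all such fits. It lost the line call in controls without control 1 or 2 of either line, at values of 8.65 to 11.0, and the range over all such fits was 8.65 to 14.4. The numbers of genes called moved with the alternatives: 258 to 1285 for DAC alone and 70 to 272 for control alone in 4T1, 41 to 192 and 15 to 65 in B16F10, and 910 to 1480 for 4T1 alone and 185 to 585 for B16F10 alone. Same-numbered DAC and control libraries did not deviate together (correlations of -0.053 to 0.026), so the numbers were not taken as pairs. With the replicate block the member counts were unchanged, at 1 higher and 3 lower in 4T1, and 3403 genes had an unadjusted p under 0.05 in peaks per locus. With equal numbers of peaks 2502 did, against 4830 as reported. In B16F10 the block left no gene of all ranked past the threshold, as did ranking by fold, against 21 higher and 4 lower, and leaving out single libraries left 0 to 6 higher and 0 to 4 lower.

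Values that changed sign were as follows. By rank of fold the DAC differences were -6.54 (Ddx58), 9.81 (Mavs) and 1.86 (Tlr3) in 4T1, and -1.45 (Mavs), 2.06 (Eif2ak2) and -1.32 (Adar) in B16F10. The line differences were -10.5 (Tlr3) and 6.13 (Eif2ak2) in DAC and -15.2 (Tlr3) in control libraries, and the differences of the DAC effect 11.8 (Mavs) and 4.67 (Tlr3). On centred log2 fold they were -0.27 (Ddx58), 0.19 (Mavs), 0.0394 (Tlr3) and 0.0072 (Trim25) in 4T1, and -0.00558 (Mavs), 0.027 (Eif2ak2) and -0.0297 (Adar) in B16F10. The line differences were -0.0329 (Ddx58), -0.0735 (Tlr3) and 0.11 (Eif2ak2) in DAC and -0.13 (Tlr3) in control libraries, and the differences of the DAC effect 0.18 (Mavs) and 0.0538 (Tlr3).

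In peaks per locus they were -1.49 (Ifih1) and 0.592 (Trim25) with equal numbers of peaks, -2.66 (Ifih1) and 0.138 (Mavs) at a fold of at least 5, 0.0319 (Tlr3) with 20 kb flanks, 1.44 (Adar) and 2.64 (Trim25) with 100 kb flanks, and 0.667 (Tlr3), 1 (Adar) and 1.67 (Trim25) without scaling. Leaving out single libraries, ranges that cross 0 were -1.62 to 1.88 (Dhx58), -2.19 to 0.0693 (Mavs) and -0.0847 to 4.33 (Adar) in 4T1, and -2.38 to 1.09 (Dhx58) and -1.07 to 3.27 (Adar) in B16F10. They were -1.69 to 2.10 (Dhx58) and -0.984 to 3.91 (Adar) for the difference of the DAC effect, and -0.212 to 0.86 (Ifih1), -0.402 to 0.297 (Tlr3) and -0.522 to 0.0115 (Trim25) for peaks per locus. No value in these last ranges passed.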
